A study of Homo sapiens with 6 samples.

Results

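The BCL2 family decides whether the mitochondrial outer membrane is breached during apoptosis. Its 10 members described here were BCL2, BCL2L1, MCL1, BIK, BMF, BAK1, BAX, BID, BCL2L11 and PMAIP1, found by their symbols in a deposited table of 26364 genes, and all 10 were measured. RNA was sequenced from Calu3 cells, an epithelial line from a human lung adenocarcinoma, transfected with siRNA against BRD8 (3 libraries) or with a negative control siRNA (3 libraries). BRD8 encodes a bromodomain protein of TIP60/NuA4, a complex that acetylates histones. All 6 libraries came from the same line and the same transfection reagent, RNAiMax, with 20 nmol of siRNA by the labels. The study used 1 siRNA reagent against BRD8, so effects of that reagent other than loss of BRD8 cannot be told apart from effects of the loss. The labels name Calu3 for every library, although the shared extraction protocol speaks of HBE cells. Whether each library was a culture of its own is not said, and the p-values therefore cover only how far these libraries spread, possibly for technical reasons.

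The family works by binding between its members. The guardians MCL1, BCL2L1 (whose main product is BCL-XL) and BCL2 hold the effectors BAX and BAK1 in check. When freed or activated, BAX and BAK1 form pores that release cytochrome c, which leads to caspase activation. The BH3-only proteins BIK, BID, BCL2L11 (BIM), PMAIP1 (NOXA) and BMF carry stress signals to the guardians and, for some of them, to the effectors directly. In airway epithelium BIK is known for driving the death of surplus mucous cells after inflammation. Much of the control of this family acts on the proteins, through phosphorylation, cleavage and degradation, none of which RNA levels show.

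BRD8 was lower in every BRD8 siRNA library. It had 1312, 1084 and 1156 normalized counts in BRD8 libraries 1 to 3, against 2751, 2928 and 3067 in control libraries 1 to 3 (log2 fold change -1.30, SE 0.0904, adjusted p = 1.13e-04, limma). A normalized count is a number of reads divided by the size factor of its library, and adjusted p-values are Benjamini-Hochberg values over the 15354 genes whose mean reached 10 normalized counts. The exons of BRD8 overlap KIF20A, which runs the other way, and reads from this unstranded kit cannot be assigned to 1 of them there. The libraries held 33640814 to 37896467 recovered reads. All 8 epithelial markers were detected. Their summed level was 441839 to 496926 normalized counts in BRD8 libraries and 331699 to 415685 in control libraries. Of these 8, 3 rose (CDH1, KRT8 and ELF3), where 10.1% of all genes tested rose. Of 10 markers of blood, endothelial, fibroblast and muscle cells, COL1A2 was at 0 in every library. PTPRC, CD3E, PECAM1, CDH5 and COL3A1 reached at most 5.398. The other 4 were abundant enough to test, and 2 of them rose (CD68 and LUM). The other fibroblast marker detected, COL1A1, was more abundant than LUM and lay lower, at 153 to 169 in BRD8 libraries and 182 to 198 in control libraries, without passing the test (adjusted p = 0.190, limma), and ACTA2 reached at most 16.4. The summed level of these 10 markers was 2013 to 2301 in BRD8 libraries and 1550 to 1933 in control libraries, and most of it was CD68, a lysosomal protein that epithelial cells also make. The part of these marker differences in the results that follow was not tested. Control library 2 stood apart from the other 5 on the second principal component, which held 20.6% of the variance.

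Calu3 cells transcribed the guardians MCL1 and BCL2L1 at the highest level of the family and BCL2 at the lowest. Per kb of exon, MCL1 averaged 3982 ± 91.3 normalized reads in BRD8 libraries and 3676 ± 153 in control libraries (mean ± SD, n = 3 each). BCL2L1 followed with 3080 ± 207 in BRD8 libraries and 2877 ± 364 in control libraries. BCL2 had 3.78 ± 0.447 in BRD8 libraries and 4.45 ± 0.481 in control libraries. Between these ends lay the effector BAX at 1656 ± 148 and 1403 ± 245, PMAIP1 at 1486 ± 82.0 and 1439 ± 124, and BID at 1025 ± 82.5 and 894.7 ± 82.0 in BRD8 and control libraries. BAK1 stood at 578 ± 44.5 in BRD8 libraries and 513 ± 63.7 in control libraries. BCL2L11 had 188 ± 9.58 in BRD8 libraries and 182 ± 21.8 in control libraries, and BMF had 39.7 ± 4.94 and 39.99 ± 1.56. The ranges of BAX and PMAIP1 overlapped in both groups, so their order was not resolved. BIK was the other member whose place changed. Its mean lay above that of BAK1 in BRD8 libraries, at 710.5 ± 156 per kb, and below it in control libraries, at 409.8 ± 42.6, with overlapping ranges in both groups. All other neighbours in the order were separated in both groups. Lengths are merged exons of GENCODE 29, and the isoforms that these cells use were not measured.

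**Figure D1:**
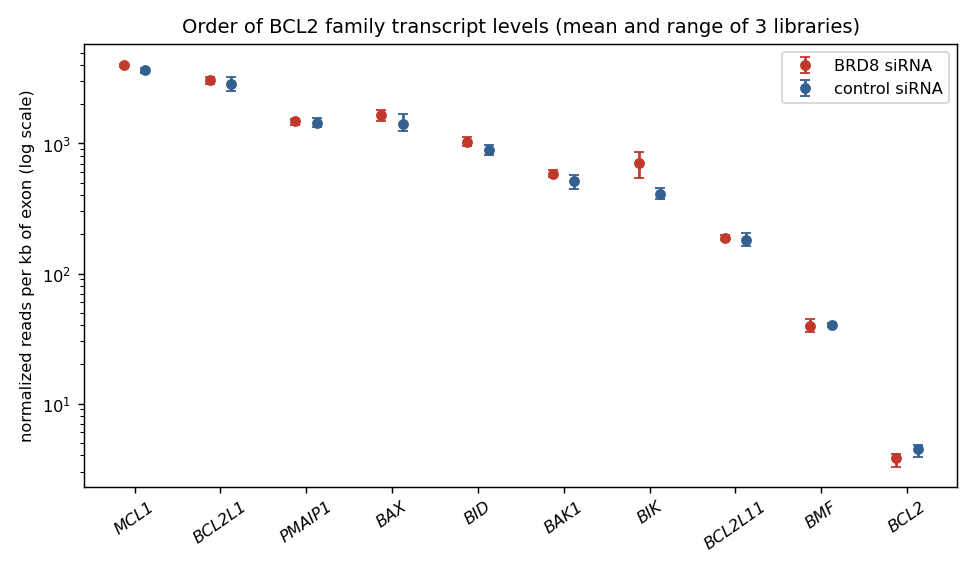
Normalized reads per kb of exon (log scale) for the 10 members, ordered by their control level, as means with the range of 3 libraries in BRD8 siRNA (red) and control siRNA (blue). The members span from MCL1, at 3982 and 3676 per kb, down to BCL2, at 3.78 and 4.45, and the ranges of BIK and MCL1 are the ones that do not overlap between the groups.

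After BRD8 siRNA, 1 of the 10 members rose and none fell. The one that rose was BIK, by 0.77 on the log2 scale. Among all genes tested 19.0% changed, 10.1% upward and 8.93% downward, so 1 of 10 members higher is near the background. The median log2 fold change was 0.11 over the members and -0.01 over all genes tested, with 8 members above 0 and 2 below. The BRD8 and control values did not overlap for 2 members, BIK and MCL1, both higher, where 36.8% of all genes tested did not overlap (18.9% higher and 17.9% lower). At an unadjusted p under 0.05 the count was 1 member higher and 0 lower, where 5084 of all 15354 genes tested passed. The edgeR test on recovered reads, DESeq2 on the same reads and the authors' deposited table each also called BIK higher and no member lower. The authors' deposited table called 20.4% of its tested genes. In bulk RNA, fewer cells of a type and less RNA per cell cannot be told apart.

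**Figure D2:**
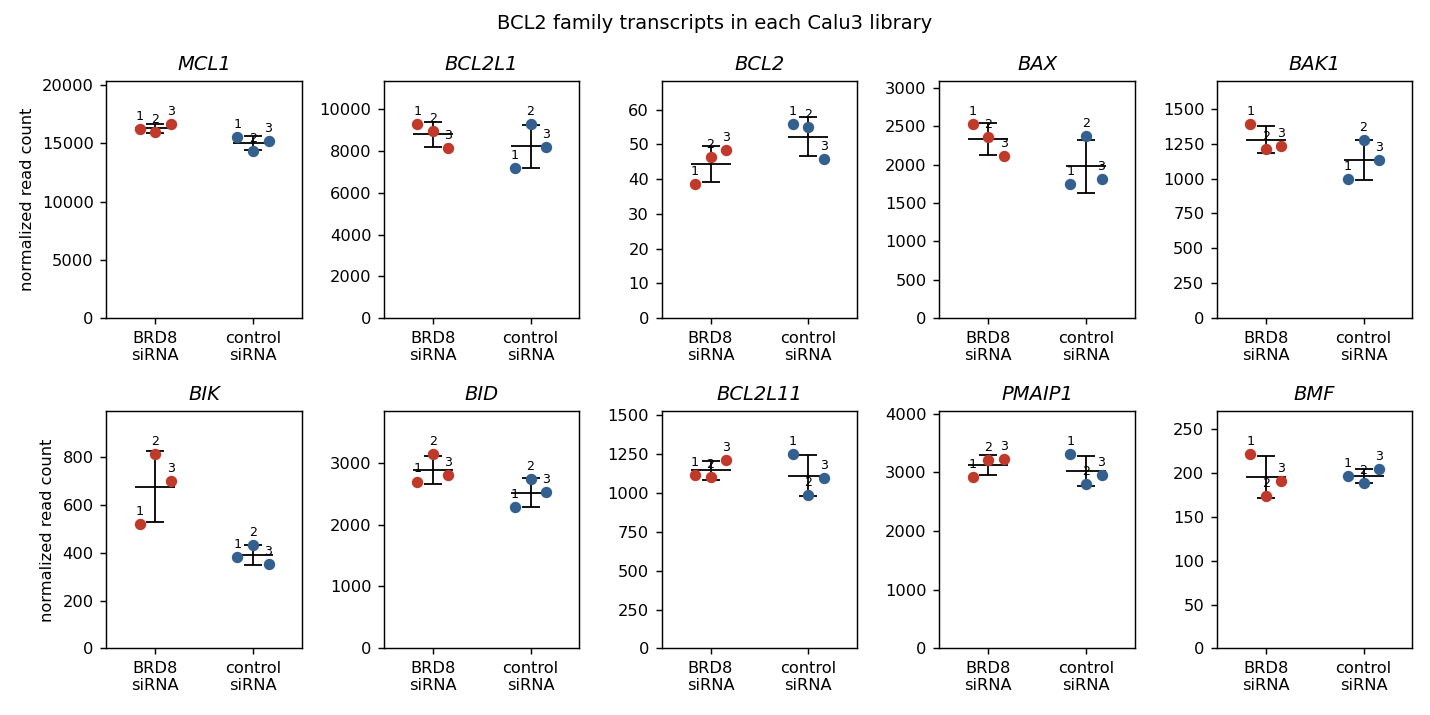
Normalized read counts (vertical axes, starting at 0) of the 10 members in the BRD8 siRNA (red) and control siRNA (blue) libraries, numbered as in the labels, with the mean and SD. BIK lies between 519 and 814 in BRD8 libraries and between 354 and 434 in control libraries, while BAX, BAK1 and BCL2L1 are highest in library 2 among the controls.

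Among the guardians, MCL1, a short-lived protein that most epithelial cells need, had 16220, 15916 and 16658 normalized counts in BRD8 libraries and 15527, 14323 and 15203 in control libraries. Each BRD8 library lay above each control library, but the difference was small. The log2 fold change was 0.12 (SE 0.0673, 95% interval -0.04 to 0.27, adjusted p = 0.273, limma). BCL2L1 had 9311, 8952 and 8155 in BRD8 libraries, against 7199, 9280 and 8193 in control libraries. Its groups overlapped, because control library 2 was nearly as high as BRD8 library 1 and BRD8 library 3 was lower than control library 3. The log2 fold change was 0.10 (SE 0.101, 95% interval -0.13 to 0.33, adjusted p = 0.522, limma). BCL2, the founder of the family, had 38.5, 46.5 and 48.3 in BRD8 libraries, against 55.9, 55.1 and 45.7 in control libraries. At this depth its interval was wide, from -0.64 to 0.18 around a log2 fold change of -0.23 (adjusted p = 0.418, limma). In fold terms the upper bounds of the intervals were 1.20 for MCL1 and 1.26 for BCL2L1.

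Both effectors had higher means in BRD8 libraries, but the groups overlapped. BAX, which moves from the cytosol to mitochondria when activated, had 2532, 2364 and 2117 normalized counts in BRD8 libraries, against 1750, 2380 and 1816 in control libraries. Control library 2 lay among the BRD8 libraries and the other 2 control libraries lay below all of them. The log2 fold change was 0.25 (SE 0.125, 95% interval -0.04 to 0.53, adjusted p = 0.205, limma). BAK1, which sits in the mitochondrial outer membrane, had 1392, 1212 and 1234 in BRD8 libraries, against 994, 1276 and 1132 in control libraries. Here too control library 2 was the one that overlapped. The log2 fold change was 0.18 (SE 0.107, 95% interval -0.06 to 0.42, adjusted p = 0.286, limma).

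BIK is a BH3-only protein of the endoplasmic reticulum membrane that binds the guardians. It had 519, 814 and 699 normalized counts in BRD8 libraries, against 384, 434 and 354 in control libraries. The lowest BRD8 library was above the highest control library, and the BRD8 libraries spread more widely than the controls. The means were 677 ± 149 in BRD8 libraries and 391 ± 40.6 in control libraries (SD, n = 3 each), so BIK was 1.73-fold higher. Its fitted log2 fold change came to 0.77 (SE 0.161, 95% interval 0.41 to 1.14, adjusted p = 0.0116, limma). In the authors' deposited table BIK stands at 0.80 on the same scale, with a standard error of 0.171. The adjusted p was 0.0504 without BRD8 library 3 and 0.0544 without control library 3, and 0.0385 or less without any other single library.

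The other BH3-only genes did not pass the test. BID, which caspase-8 cleaves to link death receptors to mitochondria, had 2694, 3138 and 2801 normalized counts in BRD8 libraries, against 2278, 2739 and 2519 in control libraries. Only control library 2 reached into the range of the BRD8 libraries. Its log2 fold change was 0.20 (SE 0.0932, 95% interval -0.01 to 0.41, adjusted p = 0.179, limma). BCL2L11, the potent activator BIM, had 1119, 1107 and 1213 in BRD8 libraries, against 1252, 988 and 1096 in control libraries, and the control libraries spanned all of the BRD8 values. PMAIP1, a p53-responsive gene whose product binds MCL1, had 2920, 3205 and 3230 in BRD8 libraries, against 3312, 2805 and 2947 in control libraries. BMF, which is held at the cytoskeleton until released, had 221, 174 and 190 in BRD8 libraries, against 196, 189 and 204 in control libraries. For these 3 genes the log2 fold changes were 0.05, 0.05 and -0.02, with 95% intervals of -0.18 to 0.28, -0.15 to 0.24 and -0.29 to 0.26. The intervals leave room for changes of up to about 1.21-fold in BCL2L11, 1.18-fold in PMAIP1 and 1.20-fold in BMF upward, and do not show that these genes stayed the same.

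The result for BAX, BAK1 and BID turned on control library 2. Without it 4 members rose, namely BIK, BAX, BAK1 and BID, where 15.9% of all genes tested rose and 34.1% changed without that library. BAX was then higher by 0.39 (adjusted p = 0.00487), BAK1 by 0.27 (adjusted p = 0.0425) and BID by 0.26 (adjusted p = 0.0322, limma) on the log2 scale. BCL2L1 had 0.20 and an adjusted p of 0.0829. Without BRD8 library 3 no member rose, where 5.67% of all genes tested did, and without control library 3 none rose, where 5.42% did, so 0 of 10 is near the background of those fits. No member fell without any single library.

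**Figure D3:**
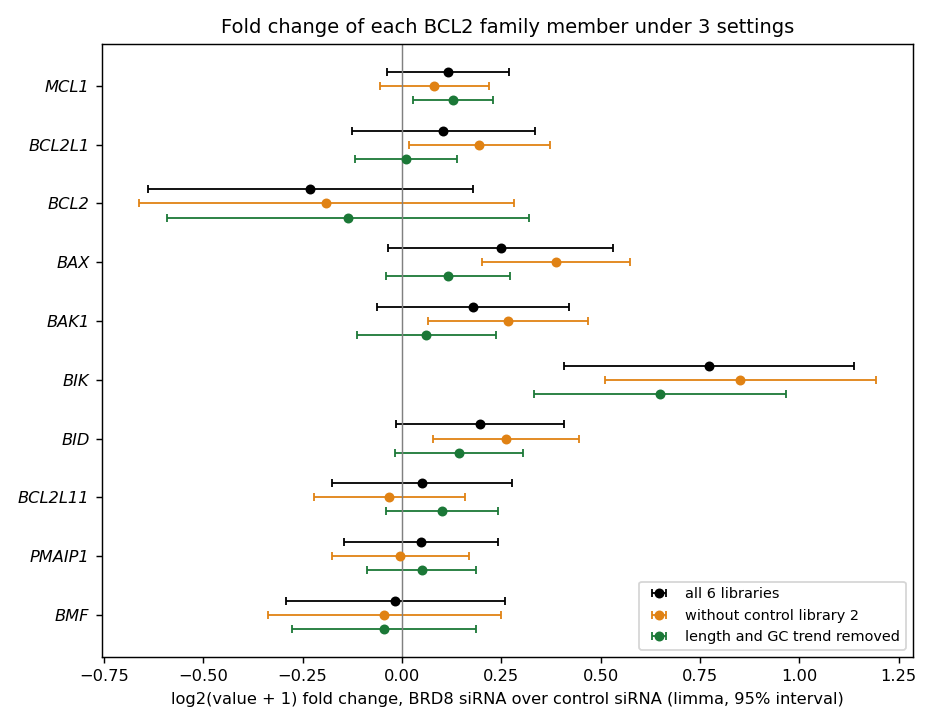
Log2 fold change, BRD8 siRNA over control siRNA, of each member with its 95% interval from limma (horizontal axis) in all 6 libraries (black), without control library 2 (orange) and after correction of every library for exon length and GC content (green). BIK lies right of 0 in all 3 settings, whereas BAX moves between 0.39 without control library 2 and 0.12 after the correction.

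Some of the members went up and down together from library to library within a group. Measured as the difference of each library from its group mean, BCL2L1 and BAK1 followed BAX across the 6 libraries with Pearson r of 0.93 and 0.86, while MCL1, BCL2L11 and PMAIP1 ran opposite to it with r of -0.92, -0.88 and -0.81. These values describe 6 libraries that share their depth and composition for every gene, and the other members stood apart from both sets, with r of 0.56 for BID, 0.08 for BIK, 0.02 for BMF and -0.11 for BCL2. The first set has GC-rich transcripts, with 58.9% GC in BAX, 58.8% in BAK1 and 56.9% in BCL2L1. The second set has 45.7% in BCL2L11, 45.1% in MCL1 and 37.2% in PMAIP1. The members outside both sets had 56.0% in BIK, 54.8% in BMF, 49.7% in BID and 45.6% in BCL2. BIK and BMF are thus also GC-rich, and BCL2 is as GC-poor as MCL1. The part of GC content in these r values was not tested.

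Both GC content and exon length moved with the libraries as a whole. Over all genes tested with a known length, a rise of 10 percentage points in transcript GC content went with a higher log2 level, relative to the mean of the 6 libraries, of 0.106 in BRD8 library 2 and 0.0727 in control library 2. The same slope was -0.00208 and -0.00332 in BRD8 libraries 1 and 3, and -0.0880 and -0.0854 in control libraries 1 and 3. Per doubling of exon length, fitted on its own, the slope was -0.0651 in BRD8 library 2 and -0.0678 in control library 2, the opposite sign to that for GC content. It was -0.00587 and 0.00414 in BRD8 libraries 1 and 3, and 0.0791 and 0.0555 in control libraries 1 and 3. Length and GC content were corrected together, and the part of each was not tested. The correction was made relative to the mean of all 6 libraries. It therefore also takes out any difference between the groups that follows length or GC content. An effect of the siRNA of that kind cannot be told apart from a technical trend. After correction for both trends, the log2 fold change was 0.12 for BAX (adjusted p = 0.232), 0.06 for BAK1 (adjusted p = 0.581), 0.14 for BID (adjusted p = 0.153) and 0.01 for BCL2L1 (adjusted p = 0.912, limma). MCL1 had 0.13 (adjusted p = 0.0522) and BIK 0.65 (adjusted p = 0.00618, limma), so BIK alone among the members rose, where 15.7% of all genes rose. After the correction, r with BAX was 0.67 for BCL2L1, 0.69 for BAK1, -0.79 for MCL1, -0.63 for BCL2L11 and -0.72 for PMAIP1, and -0.87 for BIK.

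**Figure D4:**
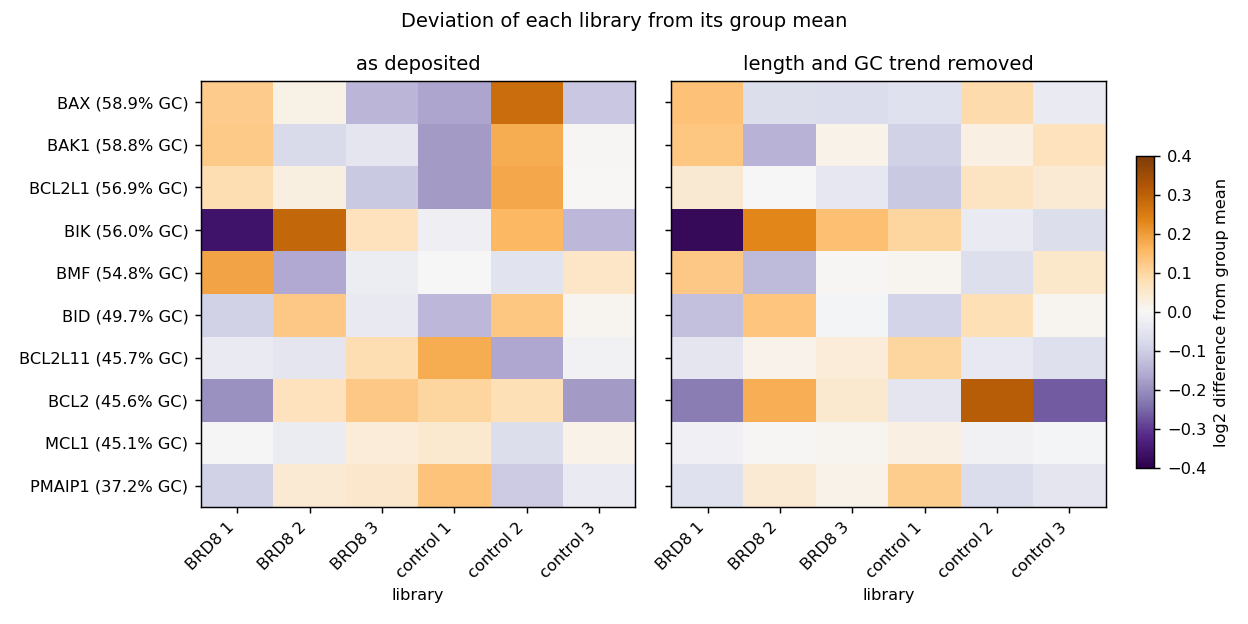
Log2 difference of each library from the mean of its group (colour) for the 10 members, ordered from the highest to the lowest GC content, as deposited (left) and after the length and GC correction (right). In the left panel BAX, BAK1 and BCL2L1 are high in control library 2 while BCL2L11 and PMAIP1 are low there, and BIK varies most among the BRD8 libraries in both panels.

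Ratios between members within a library do not depend on its size factor. They were chosen after the values were seen and are given as a description, as ratios of normalized counts that are comparable between libraries but not between genes. BAX over BCL2L1 was 0.272, 0.264 and 0.2596 in BRD8 libraries, against 0.243, 0.256 and 0.222 in control libraries. This ratio of an effector to a guardian did not overlap between the groups, although both genes alone did, and control library 2 lay just below BRD8 library 3. How often ratios of other gene pairs separate the groups was not computed, and 36.8% of all single genes tested did not overlap. The ratio was not corrected for length and GC content and is not read as a result. Against MCL1, the most abundant guardian, both effectors overlapped. BAX over MCL1 was 0.156, 0.1485 and 0.127 in BRD8 libraries, against 0.113, 0.166 and 0.1195 in control libraries, with the highest value in control library 2. BAK1 over MCL1 was 0.0858, 0.0761 and 0.0741 in BRD8 libraries, against 0.0640, 0.0891 and 0.0745 in control libraries, again highest in control library 2. BIK over BCL2L1 was 0.0557, 0.0909 and 0.0857 in BRD8 libraries, against 0.0533, 0.0468 and 0.0432 in control libraries, also without overlap. BIK over MCL1 was 0.0320, 0.0511 and 0.0420 in BRD8 libraries, against 0.0247, 0.0303 and 0.0233 in control libraries, and did not overlap either. BIK itself is higher without overlap, so these ratios add no separate result. BCL2L11 over MCL1 was 0.0690, 0.0695 and 0.0728 in BRD8 libraries, against 0.0806, 0.0690 and 0.0721 in control libraries, which overlapped. PMAIP1 over MCL1 overlapped too, at 0.180, 0.201 and 0.194 in BRD8 libraries, against 0.213, 0.196 and 0.194 in control libraries. By role, the 3 guardians together had 24862 to 25569 normalized counts in BRD8 libraries and 22783 to 23657 in control libraries. The 2 effectors together had 3351 to 3925 in BRD8 libraries and 2744 to 3656 in control libraries, and the 5 BH3-only genes had 7473 to 8437 and 7120 to 7422.

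The genes whose levels over the 6 libraries were most like those of BIK were TJP3, a tight junction scaffold, SLC16A3, a lactate exporter, and the pseudogene ZNF818P, with Pearson r of 0.998, 0.998 and 0.996. As many as 725 of the tested genes had an r above 0.9 with BIK over these 6 libraries, which fall into 2 groups of 3. SLC16A3 had 7928 ± 1756 normalized counts in BRD8 libraries and 4705 ± 342 in control libraries, and TJP3 had 2448 ± 384 and 1720 ± 135 (SD, n = 3 each). The member most like BIK was BID, with an r of 0.854, at rank 1317 among the genes tested.

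Of the other BCL2 family genes, 13 of 16 were abundant enough to test, and 1 rose and 1 fell. Over all genes tested 10.1% rose and 8.93% fell, so these counts are near the background. BCL2L15, a family member reported mostly from the gastrointestinal tract, had 1377, 1507 and 1584 normalized counts in BRD8 libraries, against 922, 950 and 954 in control libraries. Its groups lay far apart relative to their spread (log2 fold change 0.66, SE 0.0798, adjusted p = 0.00117, limma), and the call held without any single library. BCL2L13, a mitochondrial protein with a role in mitophagy, had 2713, 2475 and 2574 in BRD8 libraries, against 3078, 3053 and 3207 in control libraries. Its log2 fold change was -0.27 (SE 0.0700, adjusted p = 0.0294, limma). The adjusted p of BCL2L13 was 0.130 without BRD8 library 2, 0.106 without BRD8 library 3, 0.0704 without control library 1 and 0.141 without control library 3, and no other family gene on this list then fell. BOK, named here after its values were seen, is a BAX-like effector and had 2172, 2368 and 2118 in BRD8 libraries, against 1696, 2022 and 1803 in control libraries. It did not pass in limma with all libraries (log2 fold change 0.27, adjusted p = 0.0621) but did without control library 2 (0.34, adjusted p = 0.00568). It also passed in DESeq2 (adjusted p = 0.0398), in the authors' deposited table (adjusted p = 0.0453) and in limma with a replicate block (adjusted p = 0.0228). It did not pass in edgeR, with quantile normalization or after the length and GC correction. The median over the 13 genes was 0.04.

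**Figure D5:**
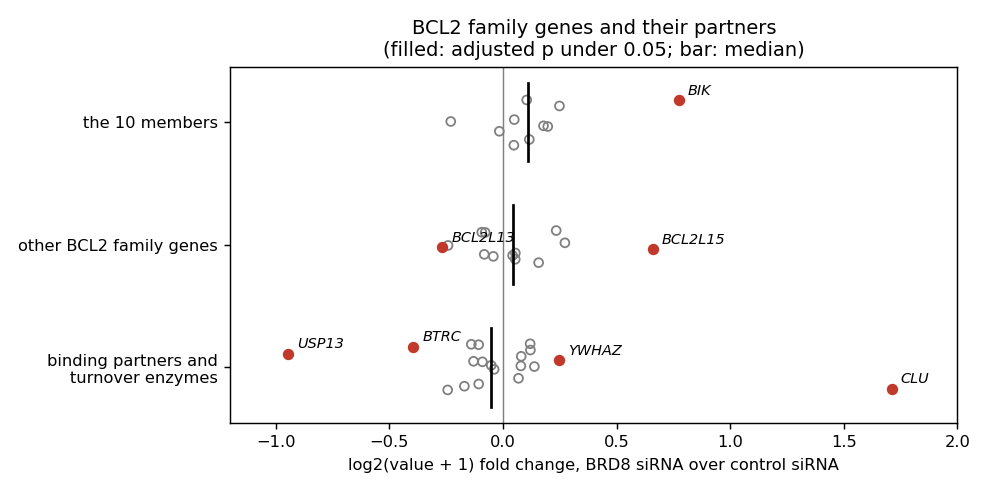
Log2(value + 1) fold change, BRD8 siRNA over control siRNA (horizontal axis), of each tested gene among the members, the other BCL2 family genes and the binding partners and turnover enzymes, with genes past an adjusted p of 0.05 (limma) filled and named and the median of each group as a bar. Most genes of each group lie near 0, with CLU at 1.71 and USP13 at -0.95 as the farthest.

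Downstream of the pores, 2 of 20 genes of the mitochondrial death machinery rose and none fell, with a median log2 fold change of -0.01. Among all genes tested 10.1% rose and 8.93% fell, so 2 of 20 higher is near the background. Without any single library except control library 2, 1 gene of the list rose. In those fits 1360 to 1980 of the 15354 genes tested changed in either direction. MTCH2, which receives BID at mitochondria, and BIRC6, a giant inhibitor of apoptosis protein, are named after their values were seen. MTCH2 had 3318, 3122 and 3126 normalized counts in BRD8 libraries, against 3518, 4066 and 3808 in control libraries. Its groups did not overlap, but it just missed the threshold in limma with all 6 libraries (log2 fold change -0.25, adjusted p = 0.0533). With all 6 libraries it passed in DESeq2 (adjusted p = 0.0323) and in the authors' deposited table (adjusted p = 0.0319). In limma it passed with a replicate block (0.0457), at a mean of at least 50 (0.0492) and after the length and GC correction (0.00915). It did not pass in edgeR or with quantile normalization. BIRC6 had 4366, 3453 and 4441 in BRD8 libraries, against 6430, 3456 and 5916 in control libraries, where control library 2 was as low as BRD8 library 2. Without control library 2 both genes fell, MTCH2 with a log2 fold change of -0.20 (adjusted p = 0.0478) and BIRC6 with -0.60 (adjusted p = 0.00121, limma). In that fit 34.1% of all genes tested changed. BIRC6 passed in no other fit, including the one corrected for length and GC content. MTCH2 was the 1 gene of the list that fell without control library 1.

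Of 19 binding partners and turnover enzymes of the family, 2 rose and 2 fell, and the median was -0.05. The shares over all genes tested were 10.1% higher and 8.93% lower, so these counts too are near the background. CLU, a chaperone whose intracellular form is reported to bind BAX, had 16099, 14358 and 12965 normalized counts in BRD8 libraries, against 4163, 4840 and 4244 in control libraries (log2 fold change 1.71, SE 0.0978, adjusted p = 5.84e-05, limma). USP13, a deubiquitinase reported to stabilise MCL1, had 973, 921 and 996 in BRD8 libraries, against 2007, 1644 and 1937 in control libraries (log2 fold change -0.95, SE 0.0929, adjusted p = 4.72e-04, limma). Both calls held without any single library. BTRC, the substrate receptor of a ubiquitin ligase, fell with a log2 fold change of -0.40 (adjusted p = 0.0147, limma). YWHAZ, a 14-3-3 protein that sequesters phosphorylated BAD, rose by 0.25 (adjusted p = 0.0442). BTRC lost its call without BRD8 library 2 (adjusted p = 0.0683), control library 1 (0.0566) or control library 3 (0.0682). Of the fits that left out 1 library, YWHAZ passed only without control library 2, at 0.0293, and otherwise lay between 0.0789 and 0.179. Genes lower numbered 4 without control library 2 and 1 without BRD8 library 2, control library 1 or control library 3. Without control library 2, 34.1% of all genes tested changed in either direction.

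The starts of these genes differ in base composition. The RefSeq promoter table (GRCh38.p14) held 8 of the 10 members, all except BIK and MCL1, and BCL2L15. The 250 bases before the start are shown for BAX, the effector whose call turned on 1 library, for PMAIP1, a BH3-only gene that did not pass, and for BCL2L15, the other family gene that rose. They lie at chr19:48954625-48954874 on the plus strand, chr18:59899746-59899995 on the plus strand and chr1:113887582-113887831 on the minus strand. Capitals mark matches on either strand to the GC box GGGCGG, to the CCAAT box, to the E-box CACGTG, to the TATA box TATAAA or to the E2F-type site TTTNGCGC.
BAX: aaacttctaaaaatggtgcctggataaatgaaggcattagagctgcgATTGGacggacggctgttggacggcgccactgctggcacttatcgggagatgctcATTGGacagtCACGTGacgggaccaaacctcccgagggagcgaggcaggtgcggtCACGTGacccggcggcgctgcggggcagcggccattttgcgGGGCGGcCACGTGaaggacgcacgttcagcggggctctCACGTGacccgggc
PMAIP1: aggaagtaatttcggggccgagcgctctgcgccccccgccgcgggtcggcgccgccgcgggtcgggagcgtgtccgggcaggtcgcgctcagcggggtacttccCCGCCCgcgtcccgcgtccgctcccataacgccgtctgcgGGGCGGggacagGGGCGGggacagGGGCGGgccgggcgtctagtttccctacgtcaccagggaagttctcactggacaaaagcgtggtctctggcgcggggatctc
BCL2L15: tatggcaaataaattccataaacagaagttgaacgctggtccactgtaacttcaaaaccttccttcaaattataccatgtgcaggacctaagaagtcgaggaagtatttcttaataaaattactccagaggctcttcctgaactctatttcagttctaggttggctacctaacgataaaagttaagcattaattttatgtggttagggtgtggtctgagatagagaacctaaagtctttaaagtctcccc

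BAX held 4 E-boxes in this window, where 6.34% of the 35116 promoters in the table held at least 1, and 2 CCAAT matches, where 32% held at least 1. PMAIP1 held 4 GC boxes, where 42.6% of promoters held at least 1, and 36 CpG dinucleotides, more than 95.1% of promoters. BCL2L15 held none of the 5 motifs and 3 CpG dinucleotides, more than 22.9% of promoters. These matches describe letters in a window of 250 bases and are not evidence of binding.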

How the data were processed

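The deposited table gives, for 6 Calu3 libraries, a normalized signal per gene: counts of reads after division by the size factor of the library, by the authors, per the file headers and the values. Build hg19, STAR 2.6, featureCounts 1.6.3 and DESeq2 1.22.1 are listed in the submitters' processing notes. For the annotation, strand setting and filters, nothing is stated in the labels. The authors' deposited comparison adds score columns (a log2 fold change, its standard error and an adjusted p) and p-values.

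From the normalized values, a model was fitted with limma 3.58.1 (R 4.3.3, trended prior variance) to log2(value + 1) over the 15354 genes with a mean of at least 10, with treatment as the only term, and p-values were adjusted by Benjamini and Hochberg at 0.05. The log2 fold changes are on the log2(value + 1) scale and understate changes of low genes. Whole reads were recovered for 100% of values within 0.01 of a whole number, and edgeR 4.0.16, which called 2969 genes, and DESeq2 1.42.0 were run on them as alternatives. A floor of 3 reads equals 2.84 to 3.24 normalized counts and covers counting error only. The fit was tested on simulated data. It recovered 59% of changes of 1.5-fold and 88% of changes of 2-fold, and 7.55% of its calls were false, more than the threshold of 0.05 allows. The simulation held 200 changed genes, far fewer than the 2920 called in the data, so these shares may not hold for the data. No pair of replicates agreed within counting error (chi-square over its degrees of freedom, 6.63 to 51.9).

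The members and all gene lists were chosen with earlier results of these data known. Genes named are the members, BRD8, up to 4 changed genes per list by adjusted p, and the 3 genes most correlated with BIK. Outside this rule, BOK, MTCH2, BIRC6, cell type markers and the 3 family genes too low to test are also named, the first 3 after their values were seen. The genes of the death machinery list that rose are not reported here one by one. Exon lengths, GC content and overlaps come from GENCODE 29, which is on another build, and 23773 symbols matched it. Of the members, BCL2L1, MCL1, BMF, BAK1 and BCL2L11 share exon positions with another annotated gene, whose reads an unstranded kit mixes there. The fit corrected for length and GC content was added after the data were seen and covers 14374 genes. Other alternatives were the pseudocount, the filter, quantile normalization, each library left out and a replicate block.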

Additional observations from a re-analysis of the deposited data

How the results depend on the processing

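With 3 libraries a group, the counts depended on single libraries. Leaving out 1 library at a time, the number of genes changed over all genes lay between 1360 and 5229 against 2920, members higher between 0 and 4 against 1, and members lower at 0 throughout. Other BCL2 family genes higher lay between 1 and 2 and lower between 0 and 1, death machinery genes higher between 1 and 2 and lower between 0 and 2, and binding partners higher between 1 and 3 and lower between 1 and 4. After the length and GC correction, 4956 genes changed, with 2 other BCL2 family genes lower, and 5 death machinery genes higher and 3 lower. Other BCL2 family genes higher numbered 2 in DESeq2, with the replicate block and in the authors' deposited table. Death machinery genes lower numbered 1 in DESeq2, in the authors' deposited table, at a mean of at least 50 and with the replicate block, under which 4 rose. Binding partners higher numbered 1 with quantile normalization and 1 with no filter on low values, where YWHAZ had adjusted p-values of 0.170 and 0.0908. The cause of these changes was not tested. The other counts stayed within 1.5 times their value.

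Whether equal replicate numbers pair the libraries is not said in the labels and was not settled here. Same-numbered libraries had correlations of -0.09, 0.34 and 0.16 between their deviations from the group means. The libraries numbered 2 had the highest value of all pairs and shared the signs of their GC and length slopes. In contrast, BRD8 library 1 correlated best with control library 3, and BRD8 library 3 with control library 1 (0.33). With the replicate block 3901 genes changed, and among the members BIK alone was called (adjusted p = 0.00407), with BID at 0.0542.

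The log2 fold change of BIK lay between 0.63 and 0.95 over the 17 settings, and 15 of them called it. BAX, BAK1 and BID were each called in 1 setting, the fit without control library 2. BCL2 could not be tested at a mean of at least 50. A tally of single genes covers the members, BRD8 and the changed genes of each list. BOK, MTCH2, BIRC6 and the cell type markers are outside it, and the first 3 passed in some settings, as given above. Of its 303 alternative values, 279 kept their side of the threshold, 21 lost a call, 3 gained one and 0 reversed the direction of a call. Genes that were not called could change sign. The log2 fold change lay between -0.11 and 0.06 for BMF, -0.03 and 0.14 for BCL2L11, and -0.004 and 0.12 for PMAIP1. Depth limits BCL2 most, at 38.5 to 55.9 normalized counts.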

Other observations

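The family genes too low to test were BCL2A1, BCL2L10 and HRK. BCL2A1, an NF-kB-responsive guardian, had 16.6, 9.48 and 8.70 normalized counts in BRD8 libraries, against 2.84, 8.64 and 6.10 in control libraries. BCL2L10 had 6.24, 4.74 and 10.6 in BRD8 libraries, against 3.79, 4.32 and 2.03 in control libraries. In both genes the lowest BRD8 library and the highest control library were nearly equal, and the values are too low to compare the groups. HRK, a BH3-only gene of neurons, had at most 1.02.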
